A study of Mus musculus with 12 samples.

Results

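The genes of the lysyl oxidases and lysyl hydroxylases were followed in 4T1, a cell line from a mouse mammary carcinoma, cultured within 3D collagen I gels. Members were taken by gene name and not by a measured value, although these families were picked with earlier results of the data known. They are the 5 lysyl oxidase genes Lox, Loxl1, Loxl2, Loxl3 and Loxl4, and the 3 lysyl hydroxylase genes Plod1, Plod2 and Plod3. All 8 were present among the 31017 genes of the count table. In short, 3 of the 5 lysyl oxidases were at or near 0 counts in every library, and the 5 other members were expressed in all 12 libraries. Without and with FGF, the ETV4 knockout libraries had less Loxl3 and Plod2 and more Loxl4, Plod1 and Plod3 than the control libraries.

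Both families act on the lysines of collagen, at different points. Lysyl hydroxylases work in the endoplasmic reticulum: PLOD1 hydroxylates lysines of the triple helix, PLOD2 hydroxylates lysines of the telopeptides at the chain ends, and PLOD3 hydroxylates lysines and also adds sugars to hydroxylysine. Lysyl oxidases are secreted copper enzymes that oxidise lysine and hydroxylysine side chains to aldehydes, which then join neighbouring collagen and elastin molecules by covalent cross-links. In breast tumours, LOX, LOXL2 and PLOD2 are known for their part in matrix stiffening and are commonly studied as hypoxia-induced genes.

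The design crossed an ETV4 guide with FGF, in 4 groups of 3 libraries. ETV4 is a transcription factor of the PEA3 group of the ETS family, whose expression is commonly induced by FGF signalling. Control cells were nucleofected with Cas9 and a control guide RNA, ETV4 KO cells with Cas9 and a guide against ETV4, and each was grown in 2% serum either without FGF or with FGF10 at 25 ng/ml plus FGF2 at 40 ng/ml, for 4 days in low serum. The labels name 2 collagen I concentrations, 1.2 mg/ml and 2.4 mg/ml, with no statement of which applied to a given library, and gels were digested with collagenase before polyA RNA was taken. The names of all 6 knockout libraries share a tag, C39, that is not explained: if it marks a single clone, clone and genotype cannot be told apart. Whether the replicates came from separate cultures is not stated, and the p-values below reflect no more than the variation among these libraries, which could be technical.

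Library totals ran from 18229429 to 23193244 counts. Etv4 itself averaged 166 ± 3.18 CPM in control and 130 ± 24.8 CPM in ETV4 KO, and 165 ± 9.44 and 116 ± 3.3 CPM with FGF (CPM, the count scaled by library size and TMM factor; SD, n = 3 throughout). Its fall was partial, with log2 differences of -0.35 (adjusted p = 0.0173) and -0.51 (adjusted p = 0.00204), and ETV4 KO replicate 2, at 159 CPM, was close to the control libraries, at 162 to 168 CPM. A guide cut need not remove the transcript, so this count does not check the protein. That same library stood apart from all others: ribosomal protein genes took 6.74% of its counts, against 4.75 to 5.88% elsewhere, and its chi-square per degree of freedom against its replicates was 69.5 to 70.6, against at most 11.2 for other pairs. The 12 epithelial markers summed to 5008 to 5182 CPM per library in control and 4812 to 6839 in ETV4 KO. With FGF they summed to 5199 to 5815 CPM in control and 4465 to 4597 in ETV4 KO, which do not overlap. Of 9 tested, 4 were called lower without FGF, 3 were not called, and Krt19 (1.41) and Cldn4 (0.77) were called higher. With FGF again 4 were called lower, 3 were not called, and Krt19 (0.91) and Cldn4 (0.33) were called higher. Over all tested genes 23.3% were called lower and 22.5% higher without FGF, and 22.2% and 18% with FGF. When ETV4 KO replicate 2 was left out, Krt8 was called lower too without FGF, and Cdh1, Krt7 and Krt18 with FGF. Endothelial markers summed to at most 0.748 CPM in any library. Fibroblast markers, of which Dcn, Lum, Pdgfrb and Thy1 were at 0 counts and Pdgfra gave most, summed to 10.1 to 11.8 CPM in control and 8.99 to 14.2 in ETV4 KO. With FGF they summed to 8.03 to 11.46 CPM in control and 12.6 to 16.2 in ETV4 KO, without overlap, and Pdgfra was called higher (0.51, adjusted p = 0.0353). The 9 macrophage and leukocyte markers summed to 17.2 to 20.1 CPM in the control libraries of both media and to 22.8 to 30.6 CPM in the knockout libraries. Cd14 and Cd68 made up most of that sum, Adgre1 and Cd3e were at 0 counts, and the pan-leukocyte gene Ptprc stayed at or below 0.69 CPM.

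Lox, the founding member of the oxidase family, had 0 counts in all 12 libraries, which at a floor of 3 counts per group allows 0.0464 to 0.0518 CPM. Loxl1, an oxidase best known for elastic fibres, had 3 counts in control, 7 in ETV4 KO, 0 in control with FGF and 3 in ETV4 KO with FGF, never more than 4 in a library. The ratio of ETV4 KO to control for Loxl1 was 2.52 with a 95% counting interval of 0.575 to 15.1, so a difference was not detectable at this depth. Loxl2, an oxidase often studied in metastasis, had 1, 3, 0 and 3 counts in the same order, and each total of 3 came from a single library. Floors and intervals cover counting error only. When genes with low counts were kept in the test, neither Loxl1 nor Loxl2 was called: adjusted p was 0.544 and 0.637 without FGF, and 0.272 and 0.322 with FGF. The 5 remaining members passed the filter on low counts, with at least 132 counts in every library, and all comparisons concern these 5 of 8.

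**Figure D1:**
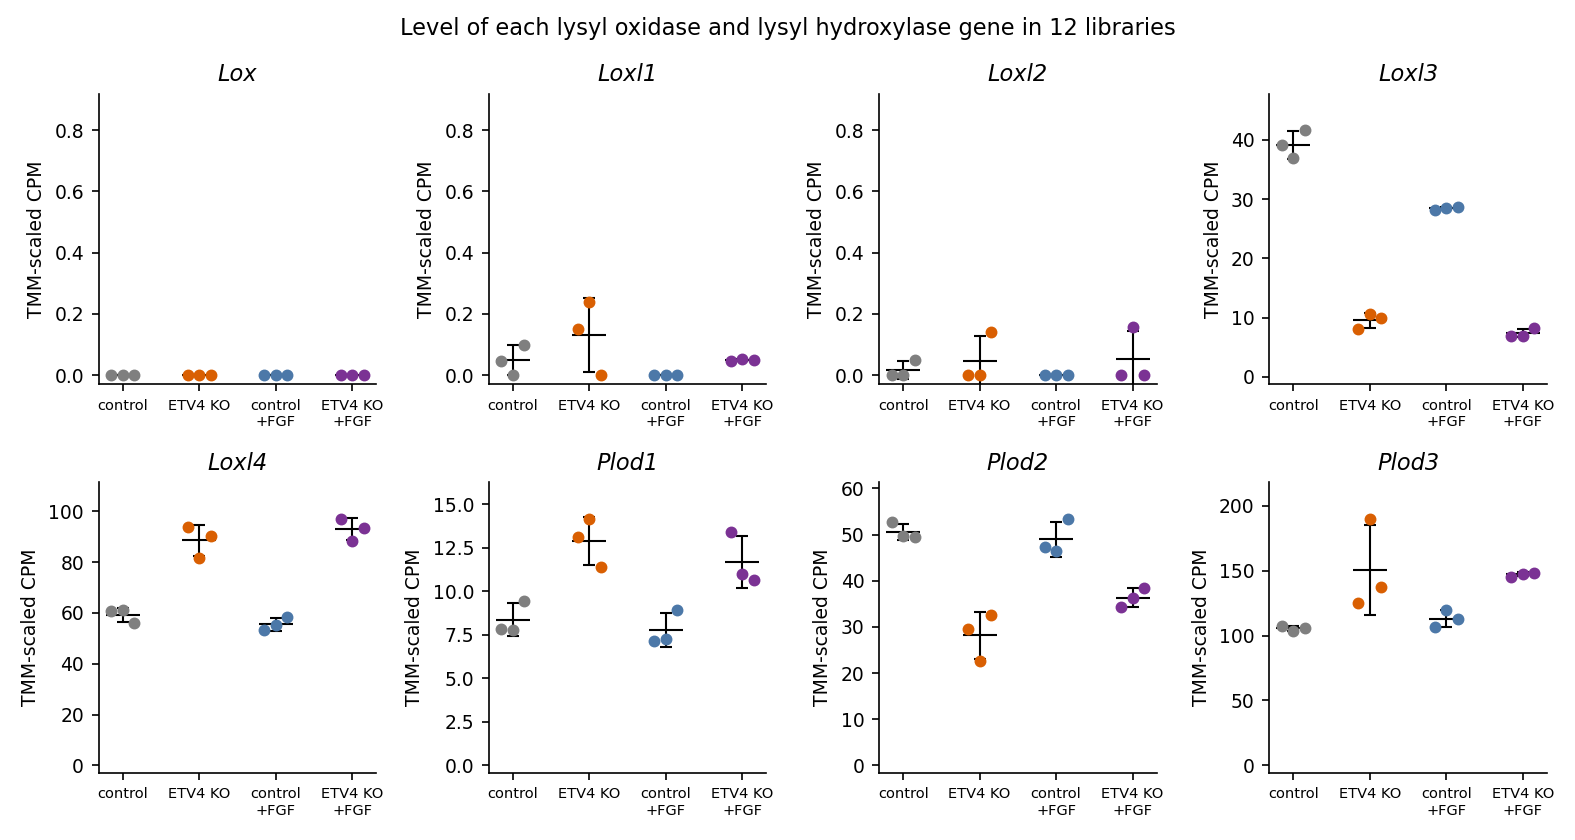
TMM-scaled CPM of each of the 8 genes (y axis, linear, own scale per gene; the 3 rare genes share a scale) in the 4 groups; points are libraries, lines are means and bars are the SD of 3 libraries, cut at the axis where they pass below 0. Lox, Loxl1 and Loxl2 lie at or near 0, Loxl3 and Plod2 are lower and Loxl4, Plod1 and Plod3 higher in both ETV4 KO groups.

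Per kilobase of exon, which allows levels to be compared between genes, Plod3 was the most abundant member in every group. In control it stood at 23.4 ± 0.425 CPM per kb, above Loxl4 at 14.1 ± 0.653, Plod2 at 9.39 ± 0.327, Loxl3 at 8.51 ± 0.511 and Plod1 at 1.24 ± 0.140 CPM per kb. These 5 ranges of libraries did not overlap in control, although Plod2 (lowest library 9.17) and Loxl3 (highest library 9.03) came close. Among all tested genes with a length, Plod3 in control was at the 81.2 percentile of CPM per kb and Plod1 at the 18.1 percentile, so both ends of the hydroxylase family were far apart. In ETV4 KO the order at the low end was lost: Loxl3 at 2.07 ± 0.273 and Plod1 at 1.91 ± 0.205 CPM per kb overlapped. With FGF the knockout values of Loxl3 and Plod1 overlapped again, at 1.60 ± 0.152 and 1.73 ± 0.219 CPM per kb. Which of these 2 was higher in ETV4 KO without FGF changed with the length used, Loxl3 by total exon length and Plod1 by coding length or longest transcript.

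In ETV4 KO without FGF, all 5 tested members were called against control (adjusted p under 0.05), 3 higher and 2 lower, where 45.8% of the 12079 tested genes were called, 22.5% higher and 23.3% lower. All 5 also had groups of libraries that did not overlap, as did 53.6% of all tested genes. With FGF in both arms all 5 were called again, in the same directions, beside 40.3% of all genes (18% higher, 22.2% lower) and groups that did not overlap for 61.4% of all genes. A change of at least 2-fold was called for 1 of the 5, Loxl3, in either medium, beside 9.88% and 9.77% of all genes. Since calls were this common, being called does not set the members apart. The median log2 difference over the 5 was 0.51 without FGF and 0.38 with FGF, against -0.0092 and -0.012 over all genes. With 3 members up and 2 down it is the value of Plod3 alone, which was 0.311 without FGF when ETV4 KO replicate 2 was left out, so it describes no shared shift.

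Loxl3, an oxidase with scavenger receptor domains known for its role in palate and cartilage development, showed the largest change of the 5. Its control libraries held 39.1, 36.9 and 41.6 CPM and its ETV4 KO libraries 8.13, 10.6 and 9.90 CPM. With FGF the values were 28.2, 28.5 and 28.7 CPM in control and 6.97, 6.98 and 8.19 CPM in ETV4 KO. Every knockout library was thus below every control library, by a wide gap in both media. Loxl3 fell 4.12-fold without FGF, a log2 difference of -2.04 (95% interval -2.27 to -1.81, adjusted p = 1.49e-08), and 3.94% of tested genes, itself included, differed at least as far in either direction. With FGF it fell 3.86-fold (log2 difference -1.95, interval -2.18 to -1.71, adjusted p = 2.54e-08). In bulk RNA, fewer cells of a type and less RNA per cell cannot be told apart, here and in all results below. The gene lies at chr6:83034173-83052562 on the plus strand (mm10), and 11.6% of its exon bases are shared with Htra2 on the opposite strand, whose own log2 differences were -0.03 and -0.22. Whether the counting used strand is not stated, and without it reads from such shared bases cannot be told apart.

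Loxl4, the most abundant lysyl oxidase of these cells, moved the other way. Control libraries held 60.6, 61.0 and 56.1 CPM and ETV4 KO libraries 93.7, 81.8 and 90.3 CPM. With FGF, control libraries held 53.2, 55.4 and 58.3 CPM and ETV4 KO libraries 97.0, 88.5 and 93.6 CPM. The lowest knockout library lay above the highest control library in both media. Loxl4 rose by 0.58 on the log2 scale without FGF (1.5-fold, interval 0.417 to 0.744, adjusted p = 5.04e-05) and by 0.74 with FGF (1.67-fold, interval 0.579 to 0.906, adjusted p = 6.45e-06).

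The opposed changes altered the makeup of the oxidase family more than its sum. Summed over the family, the level was 22.6 ± 0.275 CPM per kb in control and 23.1 ± 1.21 in ETV4 KO, where the libraries overlapped. With FGF it was 19.4 ± 0.655 in control and 23.7 ± 1.03 CPM per kb in ETV4 KO, where they did not. Loxl4 supplied 62.2% ± 2.51 of the sum in control and 90.8% ± 1.67 in ETV4 KO, and with FGF 68.1% ± 0.805 and 93.1% ± 0.626. The ratio of Loxl4 to Loxl3, both per kb, went from 1.66 ± 0.170 to 10.3 ± 2.09 without FGF and from 2.13 ± 0.0794 to 13.9 ± 1.36 with FGF. No knockout library had a ratio below 8.47 and no control library one above 2.22. These sums and ratios follow from the 2 changes already tested and were given no test of their own.

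Plod2, the hydroxylase of the collagen telopeptides, fell. Control libraries held 52.6, 49.8 and 49.4 CPM and ETV4 KO libraries 29.5, 22.6 and 32.5 CPM, the lowest being replicate 2. With FGF, control libraries held 47.3, 46.4 and 53.4 CPM and ETV4 KO libraries 34.4, 36.3 and 38.4 CPM. The groups did not overlap in either medium, and the gap was narrower with FGF. The log2 difference was -0.84 without FGF (1.79-fold lower, interval -1.09 to -0.592, adjusted p = 7.49e-05) and -0.43 with FGF (1.35-fold lower, interval -0.676 to -0.187, adjusted p = 0.00828). Without ETV4 KO replicate 2 the first value was -0.705 (adjusted p = 8.48e-08). Plod2 lies at chr9:92542223-92608428 on the plus strand (mm10).

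Plod1, the hydroxylase of the collagen triple helix and the scarcest of the 5, rose. Control libraries held 7.85, 7.79 and 9.46 CPM and ETV4 KO libraries 13.1, 14.1 and 11.4 CPM. With FGF, control libraries held 7.15, 7.27 and 8.91 CPM and ETV4 KO libraries 13.4, 11 and 10.7 CPM. All 6 knockout libraries were above all 6 control libraries. The log2 difference was 0.62 without FGF (interval 0.322 to 0.92, adjusted p = 0.00272) and 0.59 with FGF (interval 0.287 to 0.889, adjusted p = 0.00443), or 1.54-fold and 1.5-fold.

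Plod3, the hydroxylase that also glycosylates collagen, rose less, with 1 library setting much of the size. Control libraries held 107.2, 103.5 and 106.2 CPM, and ETV4 KO libraries 124.9, 189.9 and 137.1 CPM. With FGF, control libraries held 106.5, 119.8 and 112.8 CPM and ETV4 KO libraries 145.5, 147.8 and 148.4 CPM. The groups did not overlap, but the highest value, 189.9 CPM, belonged to replicate 2, the library that stands apart. The log2 difference was 0.51 without FGF (1.42-fold, interval 0.248 to 0.773, adjusted p = 0.00404) and 0.311 without that library (adjusted p = 0.000132), where the call held. With FGF it was 0.38 (1.3-fold, interval 0.120 to 0.643, adjusted p = 0.0228). That call was lost under upper-quartile scaling (0.331, adjusted p = 0.0508) and without control with FGF replicate 1 (adjusted p = 0.085) or 3 (0.0625) or without any 1 of the 3 knockout libraries with FGF (0.0526, 0.0587 and 0.0616). Plod3 shares 11.7% of its exon bases with Znhit1 on the opposite strand, which differed by 0.77 and 0.42 on the log2 scale.

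**Figure D2:**
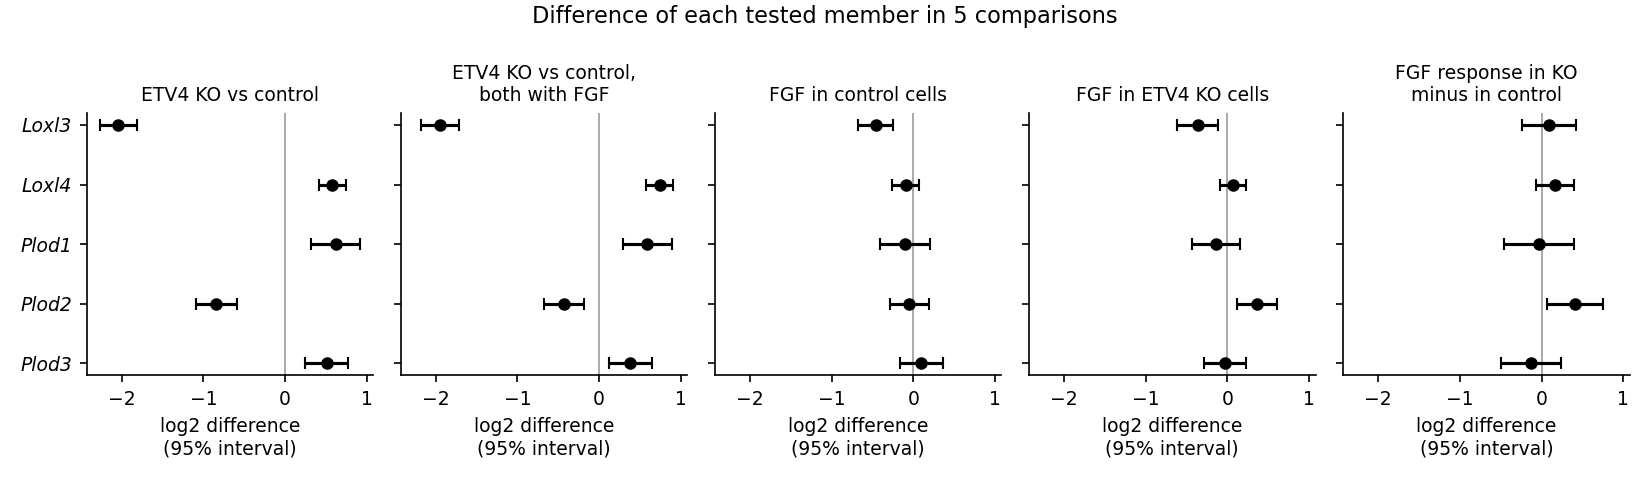
Log2 difference with its 95% interval (x axis) for the 5 tested genes (y axis) in the 2 knockout comparisons, the 2 FGF comparisons and their difference. In both knockout panels all 5 intervals lie off 0, with Loxl3 near -2, whereas in the FGF panels all points lie within 0.5 of 0.

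Within the hydroxylase family the balance moved from Plod2 to Plod3. Plod2 supplied 27.6% ± 0.641 of the summed CPM per kb in control and 13.4% ± 4.08 in ETV4 KO, and with FGF 25.8% ± 1.85 and 16.4% ± 0.704. The ratio of Plod3 to Plod2, both per kb, was 2.49 ± 0.0670 in control and 6.70 ± 2.88 in ETV4 KO. The 3 knockout ratios were 5.05, 10.0 and 5.03, so replicate 2 alone gave the spread and the height of that mean. With FGF the ratio was 2.76 ± 0.290 in control and 4.84 ± 0.217 in ETV4 KO. The family sum was 34.0 ± 0.684 and 40.5 ± 6.95 CPM per kb without FGF, and 35.3 ± 1.61 and 41.0 ± 0.498 CPM per kb with FGF.

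**Figure D3:**
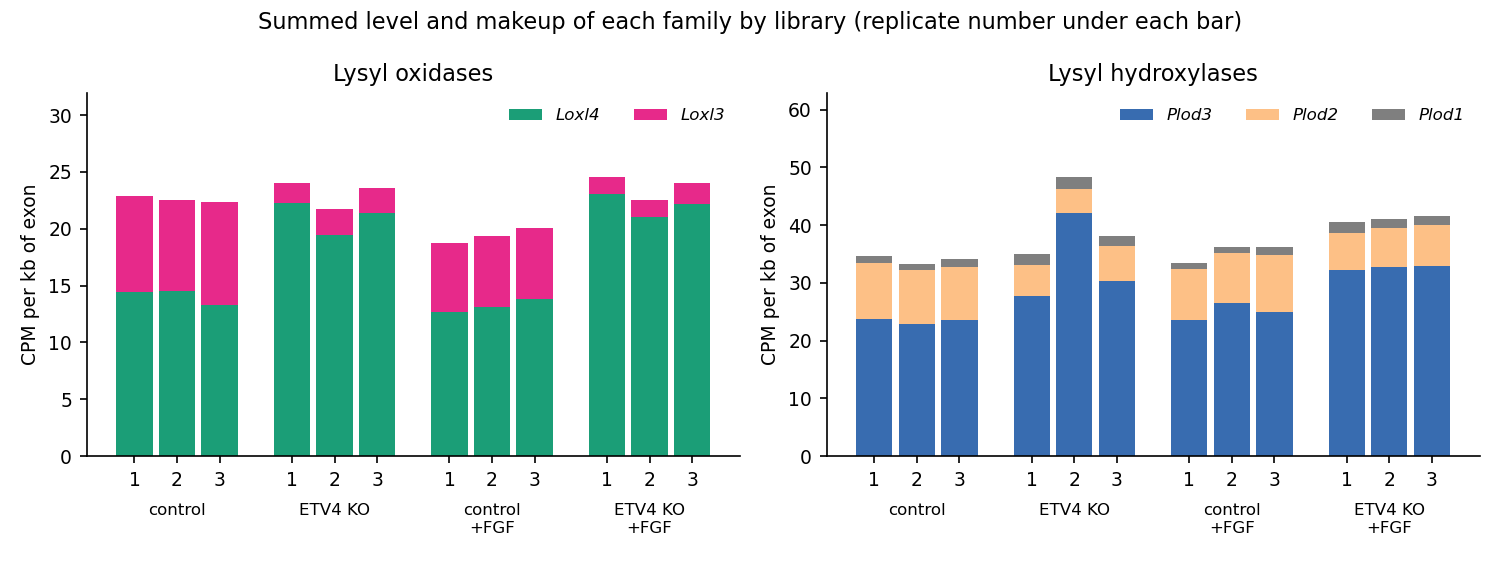
Stacked level per library (y axis, CPM per kb of exon; x axis, replicates of each group) of the oxidases at left and the hydroxylases at right; Lox, Loxl1 and Loxl2 are too low to be drawn. The oxidase sums stay between 18.8 and 24.6 while Loxl4 takes over nearly the whole bar in ETV4 KO, and the tallest hydroxylase bar, 48.3, is ETV4 KO replicate 2.

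FGF on its own called none of the 5 tested members in control cells, where 0.488% of all tested genes were called, and none in ETV4 KO cells, where 2.42% were. At an unadjusted p under 0.05, 1 of 5 members passed in control cells (5.96% of all genes) and 2 of 5 in ETV4 KO cells (19.7% of all genes). DESeq2 and limma-voom each called 1 member in control cells, Loxl3, and none in ETV4 KO cells. Loxl3 was the member nearest a call in control cells: its libraries at 28.2 to 28.7 CPM with FGF lay wholly below those at 36.9 to 41.6 CPM without FGF, a separation that 18.3% of all genes showed. Its log2 difference was -0.46 (interval -0.673 to -0.246, adjusted p = 0.0773). The call changed with the libraries fitted: adjusted p was 0.00182 with the 6 compared libraries alone and 0.000815 without ETV4 KO replicate 2, a library outside this comparison, and ranged from 0.000769 to 0.37 over 22 alternatives. In ETV4 KO cells the log2 difference of Loxl3 was -0.37 (interval -0.615 to -0.118, adjusted p = 0.119), with libraries that overlapped.

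The other members gave smaller FGF differences. In control cells the log2 differences were -0.09 for Loxl4 (interval -0.255 to 0.0728), -0.11 for Plod1 (-0.412 to 0.201), -0.05 for Plod2 (-0.289 to 0.196) and 0.10 for Plod3 (-0.165 to 0.359). In ETV4 KO cells Plod2 differed about as far as Loxl3, in the other direction. Groups did not overlap there for 23.9% of all genes. Those of Plod2 did not either, at 34.4 to 38.4 CPM with FGF and 22.6 to 32.5 CPM without, the lowest being replicate 2. The log2 difference of Plod2 was 0.36 (interval 0.113 to 0.611) and was not called (adjusted p = 0.123). Without the 2 libraries ETV4 KO replicate 2 and control with FGF replicate 2 its adjusted p was 0.0422, at a smaller difference of 0.227. Loxl4, Plod1 and Plod3 differed by 0.07, -0.14 and -0.03 on the log2 scale there, and Plod3 changed sign without ETV4 KO replicate 2 (0.169). With both of those libraries left out, Plod3 was called higher (0.169, adjusted p = 0.0312). None of these intervals is narrow enough to show that FGF left a member unchanged.

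The test of whether the FGF response differed between knockout and control cells called none of the 5 members and 0.0166% of all genes. At an unadjusted p under 0.05, 1 of 5 passed, beside 10.2% of all genes, and neither DESeq2 nor limma-voom called a member. Plod2 was that gene: its FGF response was 0.41 higher on the log2 scale in ETV4 KO cells (interval 0.0612 to 0.756, adjusted p = 0.482). The knockout difference of Plod2, -0.84 without and -0.43 with FGF, was therefore not shown to differ between the media. For Loxl3, Loxl4, Plod1 and Plod3 the difference in response was 0.09, 0.16, -0.03 and -0.13, each with an interval that spanned 0.

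Promoter sequences are shown for the members that a reference table held, 3 of 8, which happen to be the 3 called higher in ETV4 KO. RefSeq (GRCm38.p6) gave the 250 bases before the start of Loxl4 (chr19:42612807-42613056, minus strand), Plod1 (chr4:147936777-147937026, minus strand) and Plod3 (chr5:136986769-136987018, plus strand). The RefSeq start of Loxl4 lies inside the GENCODE model used for levels, so 7 bases of its window fall within that model, against 0 for Plod1 and Plod3. Lox, Loxl1, Loxl2, Loxl3 and Plod2 had no entry. They are printed 5′ to 3′ in the direction of transcription, with capitals for the PEA3 site AGGAAG, the ETS core CCGGAA, the hypoxia response core ACGTG and the GC box GGGCGG, on either strand.
Loxl4: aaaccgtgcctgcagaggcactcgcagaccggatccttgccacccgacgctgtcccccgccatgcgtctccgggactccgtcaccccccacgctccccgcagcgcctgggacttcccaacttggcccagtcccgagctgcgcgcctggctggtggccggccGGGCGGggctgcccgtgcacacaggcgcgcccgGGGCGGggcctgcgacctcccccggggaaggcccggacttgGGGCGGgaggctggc
Plod1: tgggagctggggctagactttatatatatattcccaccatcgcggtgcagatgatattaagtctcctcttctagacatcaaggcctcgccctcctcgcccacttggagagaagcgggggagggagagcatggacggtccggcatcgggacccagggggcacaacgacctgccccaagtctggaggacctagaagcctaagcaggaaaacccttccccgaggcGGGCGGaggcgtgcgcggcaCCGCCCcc
Plod3: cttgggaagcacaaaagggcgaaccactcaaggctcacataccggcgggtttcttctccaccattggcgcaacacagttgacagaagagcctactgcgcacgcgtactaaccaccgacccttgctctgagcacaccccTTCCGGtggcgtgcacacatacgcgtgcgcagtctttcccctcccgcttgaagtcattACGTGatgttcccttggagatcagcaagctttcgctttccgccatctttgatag
The Loxl4 promoter, at 76% G and C against a median of 52.4% over 32817 promoters, held 3 GC boxes, at 89, 56 and 15 bases before the start. The Plod1 promoter (61.6% G and C) held 2 GC boxes, at 28 and 8 bases, the latter on the opposite strand and printed as CCGCCC. It also held 1 TATAAA far upstream, at 232 bases, on the opposite strand and printed as tttata. The Plod3 promoter (55.6% G and C) held 1 ETS core on the opposite strand, printed as TTCCGG, at 112 bases, and 1 hypoxia response core at 54 bases. None of the 3 windows held AGGAAG. Over all 32817 promoters of that length, 29.5% held AGGAAG, 12% CCGGAA, 16.6% ACGTG, 32.7% GGGCGG and 12.4% TATAAA, each on either strand, so single matches of this kind are common. A match in letters is not a binding site, and these libraries hold no binding data.

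Each member was set beside the 50 tested genes nearest to it, to show whether its difference was shared along the chromosome. Loxl3 lay far below the median log2 difference of its neighbours on chromosome 6, which was 0.03 without and -0.07 with FGF. Of the 50, 1 and 2 fell as far: Sema4f in both media (-6.494 and -2.255), and Vamp5 with FGF (-2.187). Loxl4 on chromosome 19 (neighbours' median 0.09 and 0.15) and Plod1 on chromosome 4 (-0.05 and -0.11) likewise exceeded nearly all neighbours, of which 3 and 0, and 3 and 1, rose as far. Of 50 neighbours each, 8 and 6 were called lower around Loxl3, 13 and 10 higher around Loxl4, and 6 and 5 higher around Plod1. Over all tested genes, 23.3% and 22.2% were called lower, and 22.5% and 18% higher. Around Plod2 and Plod3, more neighbours moved as far. Around Plod2 on chromosome 9 the median was -0.32 and -0.24, with 26 of 50 neighbours called lower in either medium and 9 and 16 at least as low as Plod2. Around Plod3 on chromosome 5 the median, 0.54 and 0.37, matched the gene's own 0.51 and 0.38, with 34 and 28 of 50 neighbours called higher and 27 and 24 at least as high. Etv4's own neighbours on chromosome 11 had a median of -0.42 and -0.47, beside -0.35 and -0.51 for Etv4. Whole chromosomes shifted too: the median over the 988 tested genes of chromosome 11 was -0.37 and -0.41, and over the 785 of chromosome 5 it was 0.23 and 0.21. It was 0.20 and 0.16 on chromosome 19, -0.15 and -0.14 on chromosome 9, -0.06 and -0.05 on chromosome 6, and -0.04 and -0.08 on chromosome 4. The part of these chromosome-wide and local shifts in the members' differences was not tested.

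**Figure D4:**
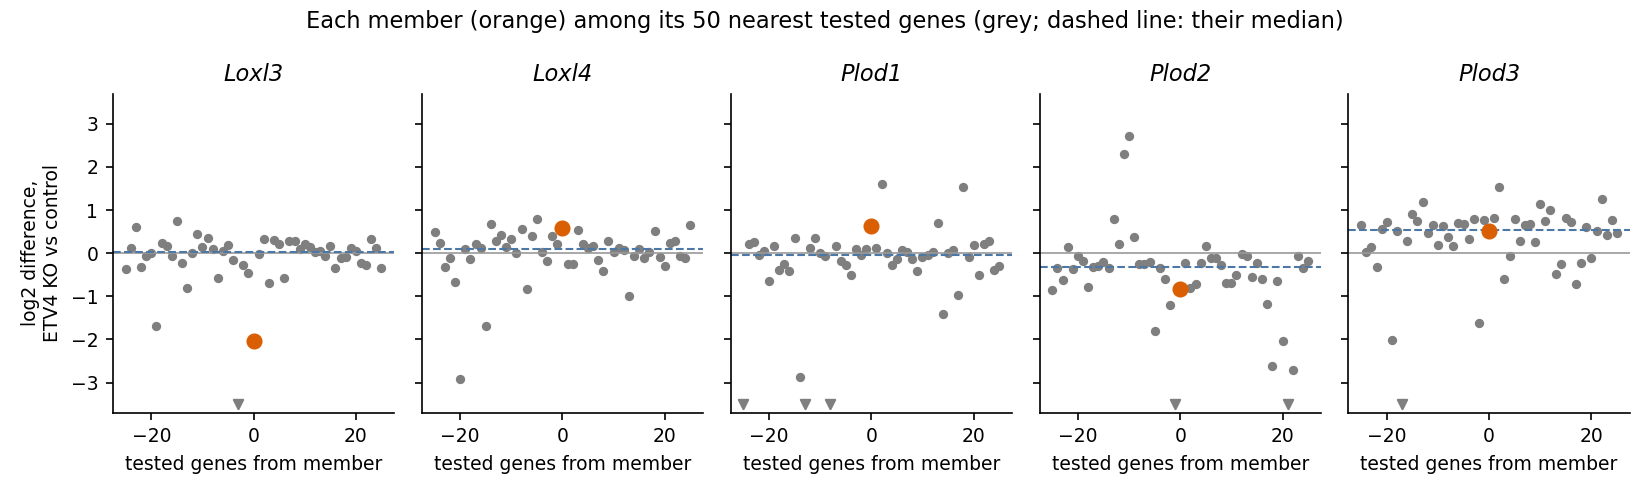
Log2 difference, ETV4 KO against control without FGF (y axis), of each tested member (orange) and its 50 nearest tested genes (grey), by order along the chromosome (x axis); the dashed line is the neighbours' median and triangles mark values below -3.5. Loxl3 lies far below its neighbours' median, Loxl4 and Plod1 lie above theirs, and Plod3 lies on the median of a raised stretch.

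Over the 12 libraries, the genes whose log2 CPM was most like each member's were named from 10092 genes, as a description, since the 4 groups and shared libraries shape every such correlation. Loxl3 was closest to Pdgfrl (Pearson r = 0.993), Tmie (0.991) and Nfkbie (0.991). Loxl4 was closest to Tfcp2l1 (0.991), Wiz (0.989) and Abcc4 (0.988). The likeness of Plod1 was weaker, to Dym (0.976), Kdm2b (0.965) and Ap2a2 (0.959). Plod2 was closest to Adcy7 (0.99), Ube4a (0.989) and Morc2a (0.983), and Ube4a shares chromosome 9 with it. For Plod3 the closest gene was Ppib (0.989), a prolyl isomerase that works with the collagen prolyl 3-hydroxylases, followed by Eif4ebp1 (0.988) and Pip4k2c (0.987). The knockout difference without FGF shrank from 0.51 to 0.311 for Plod3 and from 0.46 to 0.27 for Ppib without ETV4 KO replicate 2. How far that 1 library weighs on their likeness was not tested. Between members, Loxl3 and Loxl4 had r = -0.954 over the 12 libraries, and -0.528 once each group's mean was removed. Such values within groups ran from -0.75 (Plod2 and Plod3) to 0.66 (Loxl3 and Plod3) over all pairs of tested members, so that of Loxl3 and Loxl4 was not particular to them.

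Other genes of collagen biosynthesis were counted by list, beside 22.5% of all tested genes called higher and 23.3% lower without FGF, and 18% and 22.2% with FGF. Of 10 prolyl hydroxylases and partners, which hydroxylate collagen prolines and so stabilise the triple helix, 8 were higher and none lower in ETV4 KO without FGF, and 5 higher and none lower with FGF. Their median log2 difference was 0.48 and 0.27, against -0.0092 and -0.012 over all genes. Leaving out ETV4 KO replicate 2 gave 7 higher and 1 lower in both media, the gene then lower being P4hb, the shared beta subunit, named here after its values were seen. P4ha2, a catalytic subunit of prolyl 4-hydroxylase, rose by 1.06 (adjusted p = 2.59e-05) and with FGF by 1.18 (adjusted p = 7.32e-06) on the log2 scale. P4ha1, the other widely used catalytic subunit, rose by 0.29 and 0.23 (adjusted p = 0.00459 and 0.0203). P3h3, a partner of PLOD1 in helical lysine hydroxylation, rose by 0.64 without FGF (adjusted p = 0.00319) and with FGF differed by 0.34 (adjusted p = 0.0788). Ppib rose by 0.46 and 0.32 (adjusted p = 0.00512 and 0.0356), the former 0.27 without ETV4 KO replicate 2.

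Collagen chaperones and glycosyltransferases did not share a direction. Of 10 tested, 2 were higher and 3 lower without FGF, and 3 higher and 3 lower with FGF (3 and 4, and 4 and 3, without ETV4 KO replicate 2). Fkbp14, a prolyl isomerase of the endoplasmic reticulum, fell by 1.81 and 2.69 on the log2 scale (adjusted p = 4.71e-05 and 2.69e-06), from 3.5 ± 0.282 to 0.976 ± 0.326 CPM without FGF. Pdia3 and Pdia6, disulfide isomerases, rose by 0.46 and 0.34 without FGF (adjusted p = 0.000172 and 0.00239). Mia3, which helps load procollagen into transport carriers, fell by 0.30 without FGF (adjusted p = 0.0037) and was not called with FGF (-0.03, adjusted p = 0.772). Serpinh1, the collagen chaperone HSP47, was not called in either medium.

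Among the genes that trim procollagen, 4 of 10 passed the filter: 1 was higher and 2 lower without FGF, and none higher and 2 lower with FGF. Pcolce, an enhancer of the C-proteinase, fell by 0.71 and 1.05 on the log2 scale (adjusted p = 0.00134 and 9.90e-05), and within ETV4 KO cells it fell by 0.82 with FGF (adjusted p = 0.00977). When ETV4 KO replicate 2 was left out, the first value was -0.96 and the last -0.57, and both stayed called. Adamts14, an N-proteinase, fell by 0.51 and 0.32 (adjusted p = 0.000501 and 0.0115). Bmp1, the C-proteinase that also activates lysyl oxidase, rose by 0.25 without FGF (adjusted p = 0.0197) and with FGF differed by 0.18 (adjusted p = 0.0949). Without ETV4 KO replicate 2 those values were 0.14 (adjusted p = 0.0108) and 0.18 (adjusted p = 0.000642), so that 1 of the 4 was then higher with FGF too.

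Fibrillar collagen and elastic fibre transcripts, the main substrates of lysyl oxidases, were mostly scarce in these cells. Of 21 collagen, elastic fibre and associated genes, 7 passed the filter and 5 had 0 counts in all libraries, among them Eln, Col5a2 and Dcn. Col1a1, a chain of the collagen that formed the gel, had 8 to 12 counts per group. Basement membrane collagen, which lysyl hydroxylases also modify, was abundant: Col4a1 averaged 644 ± 36.4 CPM in control and 579 ± 20.2 in ETV4 KO and was not called (adjusted p = 0.0692; 0.0402 without ETV4 KO replicate 2). In both media 2 of the 7 were higher and 2 lower. Without ETV4 KO replicate 2 the lower count without FGF was 4, with Col4a1 and Col4a2 added. Fn1, the fibronectin gene, fell from 1315 ± 57.1 to 438 ± 77.0 CPM without FGF, a log2 difference of -1.59 (adjusted p = 1.50e-07), and by 1.37 with FGF. Fbln1, fibulin 1, had 102 counts in control and 0 in ETV4 KO in each medium, at least 31.5-fold and 31.8-fold lower at a floor of 3 counts per group. Col5a1 rose by 0.85 and 1.08 on the log2 scale (adjusted p = 8.37e-06 and 1.01e-06), and Efemp2, fibulin 4, an elastic fibre protein that binds lysyl oxidase, by 0.73 and 0.49 (adjusted p = 7.41e-05 and 0.00164).

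**Figure D5:**
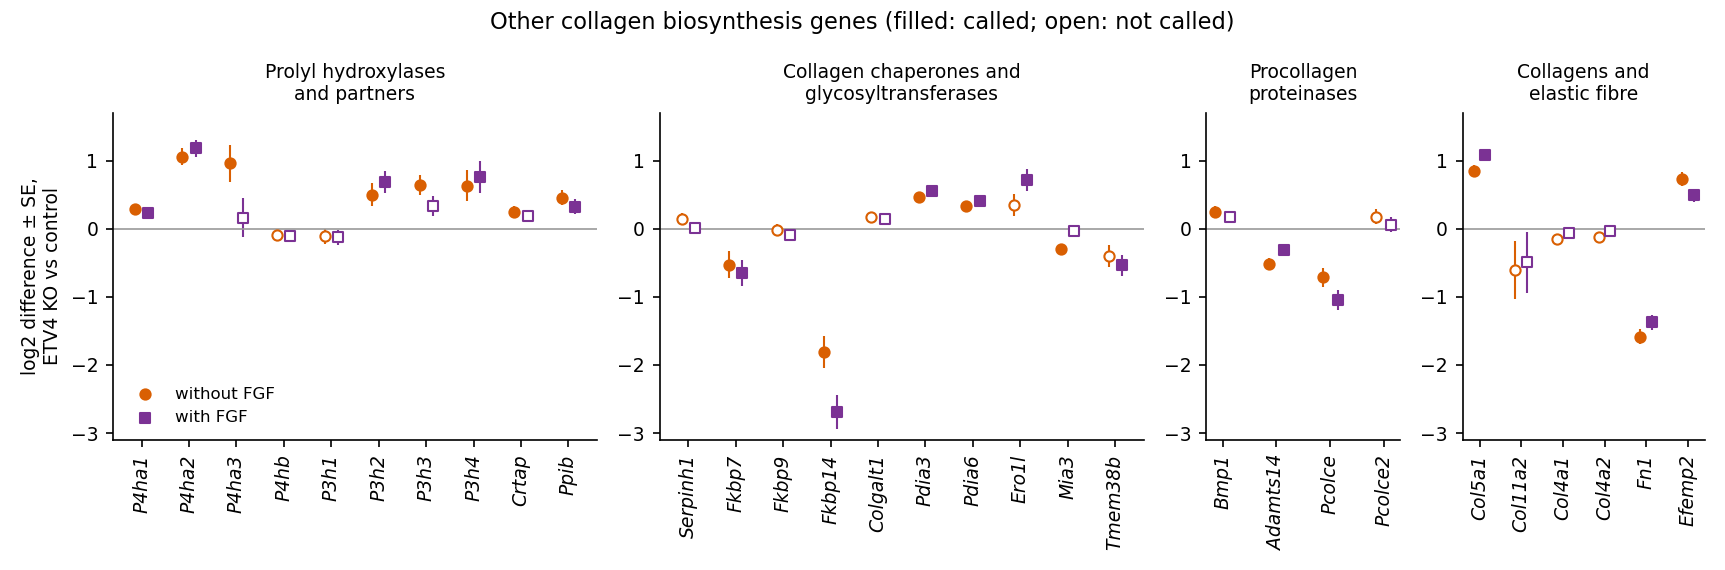
Log2 difference ± SE, ETV4 KO against control (y axis), without FGF (circles) and with FGF (squares), for the tested genes of 4 lists (x axis); filled symbols passed the test at an adjusted p under 0.05, and Fbln1 is left out as its knockout libraries are at 0. Called prolyl hydroxylase genes all lie above 0, while the other 3 panels are mixed, with Fkbp14 and Fn1 lowest.

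Genes reported as regulators of LOX and PLOD genes were mixed too: of 17 tested, 5 were higher and 4 lower without FGF, and 3 higher and 4 lower with FGF. Without ETV4 KO replicate 2 the counts were 7 and 5, and 6 and 5. Zeb1, a repressor of epithelial genes, had 50 counts in control and 0 in ETV4 KO, and 34 and 0 with FGF, at least 15.4-fold and 10.6-fold lower. Smad3, a transducer of TGF-beta signalling, fell by 0.51 and 0.49 on the log2 scale (adjusted p = 0.000159 and 0.000209). Egln1 and Egln3, prolyl hydroxylases of the hypoxia-inducible factor, rose by 0.57 and 0.92 without FGF (adjusted p = 1.87e-05 and 6.77e-07) and by 0.29 and 0.57 with FGF. Hif1a itself was not called without FGF (0.03, adjusted p = 0.904), but its knockout libraries held 222.7, 107.8 and 211.8 CPM, and without ETV4 KO replicate 2 it was higher by 0.30 (adjusted p = 0.000301).

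Of 20 hypoxia response genes, which hypoxia-inducible factors are known to activate, 10 were higher and 3 lower without FGF, and 12 higher and 1 lower with FGF, at median log2 differences of 0.34 and 0.42 (11 and 3, and 14 and 2, without ETV4 KO replicate 2). Over all tested genes 22.5% were higher and 23.3% lower without FGF, and 18% and 22.2% with FGF, at medians of -0.0092 and -0.012. Egln3, P4ha1 and Ero1l stand in this list and in one of those above. Ndrg1 rose by 1.36 and 1.42 (adjusted p = 5.85e-08 and 4.20e-08), Pdk1, which limits pyruvate entry to mitochondria, by 0.95 and 0.80 (adjusted p = 6.73e-07 and 3.31e-06), and Bnip3l, a mitophagy receptor, by 0.45 and 0.57 (adjusted p = 0.000184 and 3.27e-05). Plod2, itself a known hypoxia target, fell in both media, and Loxl2 and Lox stayed at or near 0 counts. FGF in control cells called none of the genes in the lists of collagen biosynthesis, regulators and hypoxia, and in ETV4 KO cells it called Pcolce, lower, and Ndrg1, higher by 0.35 (adjusted p = 0.0406). Without ETV4 KO replicate 2, FGF in control cells called Pcolce, Car9 and Vegfa lower and Ndrg1 higher. In ETV4 KO cells it then called Ppib, Pdia3, Adamts14, Pcolce2, Slc2a1, Vegfa and Ndrg1 higher and Pcolce and Egln1 lower. The higher macrophage marker sum of the knockout libraries, 22.8 to 30.6 against 17.2 to 20.1 CPM, moved with every knockout difference given here, and with FGF so did the lower epithelial and higher fibroblast sums. The part of these marker shifts in the differences was not tested.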

How the data were processed

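PolyA RNA of 12 libraries (TruSeq Stranded mRNA) was read from a single deposited table of raw read counts per gene symbol, which the authors had not normalized. The submitters' processing notes list the builds mm10 and hg38 and, as tools, STAR 2.7.9a, featureCounts, FastQC 0.11.9 and R 4.1.1. Not given in the sources used here: annotation release, strand setting, treatment of multi-mapped reads. Totals ran from 18229429 to 23193244 counts, 13134 of 31017 genes had 0 counts in all libraries, and no pair of replicates was a duplicate (chi-square per degree of freedom at least 3.26, where about 1 is sampling noise).

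Tests were run in R 4.3.3 with edgeR 4.0.16 (quasi-likelihood F-test, two-sided; filterByExpr by group, minimum count 10 and minimum total 15; TMM scaling; a mean per group over all 12 libraries, 8 residual degrees of freedom). P-values were adjusted by Benjamini-Hochberg over the 12079 genes tested, and a gene was called at an adjusted p under 0.05. Each adjusted p is from this test unless another tool is named. Standard errors of log2 differences were derived from the F statistic. The script was tested on simulated data. DESeq2 1.42.0, limma-voom (limma 3.58.1), other scalings, other filters, a replicate block, each comparison's own libraries, each library left out and a length and GC correction were alternatives. Levels between genes are CPM per kb of the union of exons in GENCODE vM21 models (mm10), which 30477 symbols matched directly. Likeness used log2 CPM with a prior count of 2, over tested genes with a mean of at least 1.

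Comparisons were ETV4 KO against control without and with FGF, FGF against none in control and in knockout cells, and the difference between those responses. The members and the gene lists were chosen with earlier results of these data known. Named by rule were all members, Etv4, up to 4 genes per list with the smallest adjusted p in ETV4 KO against control or called in an FGF comparison, and the 3 genes most like each member. Htra2 and Znhit1 are named for their shared exons, and Sema4f and Vamp5 as neighbours of Loxl3, outside the rule. Serpinh1, Col1a1, Col4a1, Hif1a, P4hb, Col4a2, Car9, Vegfa, Slc2a1, Eln, Col5a2, Dcn, Pxdn and the marker genes are named to show levels or calls, also outside the rule. The counts of other lists without ETV4 KO replicate 2 were an alternative added after seeing the data.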

Additional observations from a re-analysis of the deposited data

How the results depend on the processing

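For ETV4 KO against control, all 110 values of the 5 tested members (22 alternatives each) kept their direction and their call, and with FGF 104 of 110 did, the 6 exceptions being Plod3 as given above. With the replicate block, all 5 members stayed called in both knockout comparisons and genes called went from 5533 to 5705 and from 4862 to 4944. Whether the numbers pair the libraries was not settled. Only 2 of 18 same-numbered pairs correlated above 0.1 (range -0.0874 to 0.343), but 7 of 12 libraries were closest to their own number. For FGF in control cells, members called went from 0 to 1 (Loxl3) with DESeq2, limma-voom, the compared libraries alone, the length and GC correction, and without ETV4 KO replicate 2 and control with FGF replicate 2 together, and ran from 0 to 1 when each library was left out. For FGF in ETV4 KO cells, members called were 2 without those 2 libraries (Plod2 and Plod3) and ran from 0 to 1 when each library was left out (Loxl3 without ETV4 KO replicate 1, Plod2 without ETV4 KO replicate 3). Signs that turned were all of values that were small in the main test. The FGF difference of Plod3 in ETV4 KO cells ran from -0.15 to 0.169 when libraries were left out. It was 0.169 without both libraries, called in that turned direction (adjusted p = 0.0312), and 0.0638 under the length and GC correction. For the difference in response, leaving out libraries gave Plod1 values from -0.144 to 0.0751, turned in sign without control replicate 1 or 2, ETV4 KO replicate 2, control with FGF replicate 3, or ETV4 KO with FGF replicate 2 or 3. Loxl3 ran from -0.00897 (without ETV4 KO replicate 1) to 0.171, and Plod3 from -0.247 to 0.118, turned without ETV4 KO replicate 2 (0.0716) and without both libraries.

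Counts of all genes called by FGF moved most. In control cells they were 59 as reported, 143 with DESeq2, 228 with the compared libraries alone, 113 with the length and GC correction, 356 without both libraries, and 25 to 343 when each library was left out. In ETV4 KO cells they were 292, 706, 23, 756, 1428 and 120 to 950 in the same order. For the difference in response they were 2 as reported, 60 with DESeq2, 4 with limma-voom, 8 with no filter, 18 with the correction, 210 without both libraries, and 0 to 120 when each library was left out. The high end of each range came without ETV4 KO replicate 2. The cause was not tested. Other scalings moved the median log2 difference of all genes by at most 0.0506 in size. CPM per kb rises with a shorter length definition, which leaves ratios between groups as they are.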

Other observations

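Genes around the enzymes were mixed in direction, beside 22.5% of all tested genes called higher and 23.3% lower in ETV4 KO without FGF. With FGF those shares were 18% and 22.2%. Of 6 tested genes that take up or carry copper, the cofactor of lysyl oxidases, 1 was higher and 2 lower in ETV4 KO without FGF. With FGF 1 was higher and none lower. Without ETV4 KO replicate 2 the counts were 1 and 3, and 2 and 2. The gene higher without FGF was Ccs (0.48, adjusted p = 0.0181), at 0.26 without ETV4 KO replicate 2. Slc31a1, the main copper importer, fell by 0.33 on the log2 scale without FGF (adjusted p = 0.00279), and Atp7a, the pump that loads copper onto secreted enzymes, was not called (-0.94, adjusted p = 0.107). The ETV4 KO libraries held 11.7, 1.02 and 10.7 CPM of Atp7a, and without replicate 2 the difference was -0.45 (adjusted p = 0.0222). Cox17, a copper chaperone of mitochondria, fell by 1.60 without FGF (adjusted p = 0.000907) and rose by 1.31 with FGF in ETV4 KO cells (adjusted p = 0.0468). Of 5 genes listed as other cross-linkers and amine oxidases, 1 was higher and 2 lower without FGF, and 3 higher and 1 lower with FGF. Sumf1, which is neither a cross-linker nor an amine oxidase, was 1 of those 3 (0.32, adjusted p = 0.00645), beside Tgm2 and Pxdn (0.31, adjusted p = 0.0127). Aoc2, an amine oxidase, fell by 1.18 without FGF (adjusted p = 0.00642) and was not called with FGF (-0.53, adjusted p = 0.174). Qsox1, a secreted sulfhydryl oxidase, fell by 0.46 and 0.68 (adjusted p = 0.00178 and 0.000103), and Tgm2, tissue transglutaminase, rose by 0.46 and 0.71 (adjusted p = 0.0217 and 0.00221), the former 0.30 without ETV4 KO replicate 2.

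In ETV4 KO cells, where FGF called 2.42% of all tested genes, 3 of 7 tested collagen receptors were higher with FGF: Itgb1, the common beta chain, by 0.44 (adjusted p = 0.00556), Itga2, its collagen-binding partner, by 0.90 (adjusted p = 0.00721), and Cd44, a hyaluronan receptor that also binds collagen, by 0.65 (adjusted p = 0.0237) on the log2 scale. In control cells none of the 7 was called by edgeR, with Itga2 at 0.27 (adjusted p = 0.968, and 0.00932 without ETV4 KO replicate 2). The difference between the 2 responses was not called for any of the 3 (adjusted p = 0.371 for Itgb1, 0.469 for Itga2 and 0.482 for Cd44), while without ETV4 KO replicate 2 it was called for these 3. Without that library FGF in ETV4 KO cells also called Ddr1 higher (adjusted p = 0.0121) and Itga1 lower (adjusted p = 0.00655). Against control, 2 of the 7 were higher and 2 lower in ETV4 KO cells without FGF, and 4 higher and 1 lower with FGF. Over all tested genes 22.5% were higher and 23.3% lower, and 18% and 22.2% with FGF. Without FGF, Itga1 (-1.10, adjusted p = 0.000816) and Ddr2 (-0.44, adjusted p = 0.032) were lower. Ddr1 (0.38, adjusted p = 0.000829), a receptor kinase for collagen, and Cd44 (0.39, adjusted p = 0.0296) were higher. With FGF, Cd44, Itga2, Ddr1 and Itgb1 were higher and Itga1 lower.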
